A study of Mus musculus with 96 samples.

Results

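Genes of insulin-like growth factor (IGF) and neurotrophin signalling were examined in single neurons of the lateral superior olive (LSO). The 10 genes, Igf1, Igf1r, Igf2r, Igfbp4, Igfbp5, Irs1, Bdnf, Ntrk2, Ntrk3 and Ret, were chosen by name from a table of 38887 genes, with earlier results of the same table known. Differences between neuron classes are therefore given as descriptions, without a test. The genes were matched by Ensembl identifier to symbols of Gencode vM21, and all 10 were in the table.

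The study patched LSO neurons in brainstem slices of C57BL/6J mice of both sexes around hearing onset, aspirated the cytoplasm through the pipette after the recording, and sequenced each neuron as 1 library. Neurons carried a firing pattern label, Onset or Sustained for principal neurons (pLSOs), which project to higher auditory centers, and Delayed for lateral olivocochlear neurons (LOCs), which project to the cochlea. Negative controls were pipettes that had only touched the slice. No neuron received a drug or carried a transgene that the labels name.

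Of 96 libraries, 8 were left out. They were 6 of the 86 neurons and 2 of the 10 negative controls, and their label and their place in the clusters of the study, or their values in its supplement, differed. The comparisons rest on 41 Onset and 11 Sustained neurons, together 52 pLSOs, on 28 LOCs and on 8 negative controls. The labels name no animal, so each group counted as 1 sample, and standard deviations (SDs) and confidence intervals describe the neurons of these groups and counting error only. One left-out library labelled as a Sustained neuron held 1444 TPM of Igf1, 33 TPM of Ret and 1887 TPM of Calca, a peptide gene of LOCs.

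Markers of the labels were counted in the remaining libraries. Spp1, Calca, Isl1 and Gata3 were among the genes that the study ranked highest between its clusters of these neurons. Libraries whose label and cluster differed had also been left out. Agreement of these markers with the labels was thus fixed in part beforehand and does not check the labels. Spp1, a marker of pLSOs, was detected in 50 of 52 pLSOs and in 1 of 28 LOCs, and Isl1, a transcription factor gene of LOCs, in 22 of 28 LOCs and in 0 of 52 pLSOs, which allows a share of up to 5.77%. Other markers crossed the labels at low levels. Calca was detected in 26 LOCs at a mean of 1174 TPM and in 15 pLSOs at 2.60 TPM, and Gata3 in 22 LOCs at 780 TPM and in 7 pLSOs at 1.81 TPM. Negative controls held both classes' markers, with Spp1 in 4 of 8 at a mean of 58.4 TPM and Calca in 5 of 8 at 51.9 TPM. An estimated 188058 to 3778540 reads per pLSO and 304867 to 3346750 per LOC stood behind the values. The negative controls were shallower, with 3458 to 145494 reads. At least 1 of 8 microglia markers was detected in 43 pLSOs, 22 LOCs and 5 negative controls. Endothelial and mural markers were detected in 16 pLSOs and 5 LOCs, with a median summed level of 0 TPM in both classes. At least 1 of 8 oligodendrocyte markers was detected in 49 pLSOs, all 28 LOCs and all 8 negative controls, with median summed levels of 288, 1117.5 and 6831 TPM. The median level was higher in LOCs, as Igf1 and Ret were, and their part in those differences was not tested.

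IGF1 is a secreted growth factor that signals through the receptor tyrosine kinase encoded by Igf1r. IGF binding proteins hold the ligand in the extracellular space, and the insulin receptor substrates carry the signal to the PI3K and Ras pathways. Neurotrophins such as BDNF act through Trk receptors and support neuronal survival and synapse maturation, and RET is the shared signalling receptor of the GDNF family.

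Values are TPM in whole numbers, which the authors scaled for gene length and depth, and a gene was counted as detected at 1 TPM or more. The length by which the reads of a gene had been divided followed the position of its row in the table rather than the gene. One read was therefore worth an estimated 10.4 TPM for Igf1r and 2.47 TPM for Igf1 in the median neuron, but 0.0417 TPM for Ntrk3. For Ntrk2, 1 TPM stood for an estimated 21.0 reads, so that 1 read was enough for detection of Igf1r, Igfbp4 and Igf1 in the median neuron, and many were needed for Irs1, Bdnf, Ntrk2 and Ntrk3. TPM and shares are thus compared only within a gene.

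Igf1 (chr10:87858265-87937042, plus strand, GRCm38 as for all members), the ligand, was the member that differed most between the classes. In LOCs it ranged from 0 to 5024 TPM with a median of 292 TPM, and in pLSOs from 0 to 1099 TPM with a median of 0 TPM. It was detected in 19 of 28 LOCs (67.9%, exact Clopper-Pearson 95% interval 47.6 to 84.1%) and in 16 of 52 pLSOs (30.8%, 18.7 to 45.1%). The ranges overlapped, but 5 LOCs lay above the highest pLSO.

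Mean Igf1 was 686 ± 1108 TPM (SD, n = 28) in LOCs and 76.8 ± 242 TPM (n = 52) in pLSOs, an 8.93-fold ratio, and the ratio was 9.26-fold without the highest neuron of each class. On the scale of mean log2(TPM + 1), the values were 5.75 ± 4.76 and 1.48 ± 2.96, a difference of -4.27 when LOCs are subtracted from pLSOs. Both classes held neurons with the transcript and neurons listed at 0. Among LOCs, 16 had 100 TPM or more and 9 were listed at 0. Among pLSOs, 5 had 100 TPM or more and 36 were listed at 0.

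The pLSOs with Igf1 belonged to both firing types. It was detected in 9 of 41 Onset neurons (22%, 10.6 to 37.6%), from 0 to 1099 TPM with a median of 0 TPM. In Sustained neurons it was detected in 7 of 11 (63.6%, 30.8 to 89.1%), from 0 to 723 TPM with a median of 2 TPM. The intervals of these shares overlapped. Mean log2(TPM + 1) was 1.10 ± 2.73 in Onset and 2.91 ± 3.47 in Sustained neurons, a difference of -1.81 for Onset minus Sustained. In TPM the means were 70.1 in Onset and 102 in Sustained neurons, a 1.45-fold ratio toward Sustained neurons. Without the highest neuron of each group the ratio was 1.12-fold toward Onset neurons, and 3 Onset neurons lay above the highest Sustained neuron. In 8 pLSOs Igf1 lay between 2 and 3 TPM, which stood for an estimated 1 or 2 reads, so the difference between firing types rested in part on single reads.

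Igf1 was listed at 0 in each of the 8 negative controls. The 0 of 8 allows a share of up to 37.5%, and 1 read would have been worth an estimated 16.6 to 1285.8 TPM in these shallow libraries. Microglia also express Igf1 early in postnatal life, and their markers were counted beside it. A microglia marker was detected in 15 of the 19 LOCs with Igf1 and in 7 of the 9 without it. Among Onset neurons it was detected in 5 of 9 with and 27 of 32 without Igf1, and among Sustained neurons in 7 of 7 and 4 of 4.

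The summed level of the 8 microglia markers ranged from 0 to 4921 TPM in Onset neurons, from 1 to 5751 TPM in Sustained neurons and from 0 to 3050 TPM in LOCs, with upper quartiles of 331, 1022.5 and 410 TPM. In the 9 pLSOs and 6 LOCs without any of these markers, the Igf1 difference was -3.24. No Sustained neuron was without these markers, so the difference between firing types has no value there, and the markers' part in it was not tested.

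**Figure D1:**
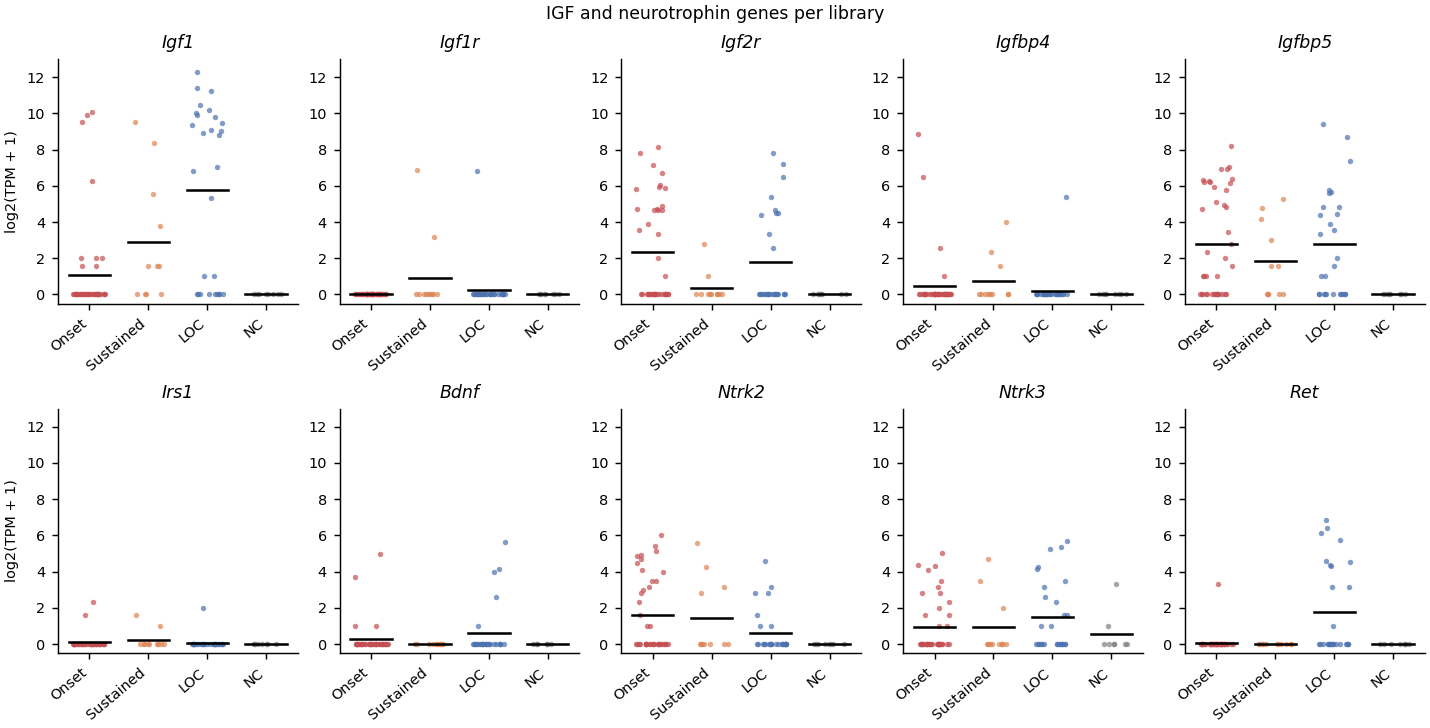
Each point is 1 library and gives log2(TPM + 1) of a gene in 41 Onset, 11 Sustained, 28 LOC and 8 negative control (NC) libraries; horizontal lines are group means. Igf1 reached 5024 TPM in LOCs and was at 0 in all 8 negative controls, and Ret was above 9 TPM in LOCs only among the libraries kept.

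Igf1r (chr7:67952827-68233668, plus strand), which encodes the IGF1 receptor, was almost absent from the table. It was listed at 115 and 8 TPM in 2 Sustained neurons and at 113 TPM in 1 LOC, and at 0 in all 41 Onset neurons, which allows a share of up to 7.32%. These 3 neurons also held Igf1. Since 1 read of Igf1r was worth several TPM, a 0 meant no counted read, and the 3 neurons held an estimated 12 reads or fewer each. Igf1r was the only member that did not pass the filter of detection in at least 5% of the 80 neurons.

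Igf2r (chr17:12682406-12769664, minus strand), the mannose-6-phosphate receptor that takes up IGF2 for degradation, was detected in both classes. In pLSOs it ranged from 0 to 285 TPM (median 0) and was detected in 21 of 52 (40.4%, 27 to 54.9%), and in LOCs from 0 to 221 TPM (median 0) and in 10 of 28 (35.7%, 18.6 to 55.9%). The difference of mean log2(TPM + 1) was 0.09, and the class ranges overlapped. Between the 9 pLSOs and 6 LOCs without a microglia marker it was 1.74, and these 9 pLSOs were all Onset neurons.

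The firing types of pLSOs stood further apart in Igf2r than the classes did. It was detected in 19 of 41 Onset neurons (46.3%, 30.7 to 62.6%), from 0 to 285 TPM with a median of 0. In Sustained neurons it was detected in 2 of 11 (18.2%, 2.28 to 51.8%), and the highest value was 6 TPM. Mean log2(TPM + 1) was 2.33 ± 2.82 and 0.35 ± 0.87, a difference of 1.98, and 16 Onset neurons but no Sustained neuron had 10 TPM or more. The intervals of the shares overlapped.

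Igfbp5 (chr1:72857932-72874884, minus strand), which encodes an IGF binding protein of the extracellular matrix, was detected in similar shares of both classes. In pLSOs it ranged from 0 to 292 TPM (median 2) in 31 of 52 with the transcript (59.6%, 45.1 to 73.0%), and in LOCs from 0 to 681 TPM (median 2.5) in 17 of 28 (60.7%, 40.6 to 78.5%). Mean TPM was 28.4 ± 52 in pLSOs and 55.2 ± 147 in LOCs, but the log2 difference was -0.18, and the ratio of LOCs to pLSOs went from 1.95 to 1.38 without the highest neuron of each class. Between the 9 pLSOs and 6 LOCs without a microglia marker the log2 difference turned to 2.12, and these 9 pLSOs were all Onset neurons. Between firing types the mean was 33.8 ± 57.2 TPM in Onset and 8.27 ± 12.8 TPM in Sustained neurons, a log2 difference of 0.94.

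Igfbp4 (chr11:99041244-99054392, plus strand), a binding protein that PAPPA cleaves to release the ligand, was rare. It was detected in 4 Onset neurons, 3 Sustained neurons and 1 LOC, and its highest value was 460 TPM in an Onset neuron and 41 TPM in the LOC. Irs1 (chr1:82233101-82291416, minus strand), the docking protein downstream of the IGF1 and insulin receptors, was detected in 4 pLSOs at up to 4 TPM and in 1 LOC at 3 TPM. For Irs1 a value of 0 could hide up to an estimated 10.7 reads in the median neuron, so absence was not detectable at this resolution.

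Bdnf (chr2:109674700-109727007, plus strand), the neurotrophin ligand, was found in few neurons of either class. Its values were 1, 1, 12 and 30 TPM in 4 Onset neurons and 1, 5, 15, 17 and 48 TPM in 5 LOCs, and it was listed at 0 in all 11 Sustained neurons, which allows a share of up to 27.3%. The shares were 7.69% (2.14 to 18.5%) of pLSOs and 17.9% (6.06 to 36.9%) of LOCs, with overlapping intervals. The log2 difference was -0.42.

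Ntrk2 (chr13:58806569-59133970, plus strand), which encodes the BDNF receptor TrkB, was detected in 22 of 52 pLSOs (42.3%, 28.7 to 56.8%) and in 7 of 28 LOCs (25.0%, 10.7 to 44.9%), with overlapping intervals. It ranged from 0 to 65 TPM in pLSOs and from 0 to 23 TPM in LOCs, with a median of 0 in both, and 13 pLSOs against 1 LOC had 10 TPM or more. Mean TPM was 7.73 ± 14.1 in pLSOs and 1.68 ± 4.68 in LOCs, a 4.61-fold ratio, which was 7.43-fold without the highest neuron of each class. The log2 difference was 0.96, just inside the size of 1 that was used to call a gene. It was 1.82 when values were rescaled to the estimated reads of a library, 0.58 without the neurons in the lowest quartile of detected genes and 0.38 with a pseudocount of 10. Mean log2(TPM + 1) was 1.59 ± 2.07 in Onset and 1.44 ± 2.11 in Sustained neurons, which differed by less than the SD over neurons.

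Astrocytes also express Ntrk2. At least 1 of 8 astrocyte markers was detected in 51 of 52 pLSOs and 26 of 28 LOCs, with summed levels from 0 to 8619 TPM (median 744) and from 0 to 23902 TPM (median 288). Among single markers, Aqp4 was detected in 12 of 52 pLSOs and 9 of 28 LOCs, Gfap in 15 and 7, Slc1a3 in 13 and 9, Slc1a2 in 24 and 10, Aldoc in 39 and 20, S100b in 29 and 21, Aldh1l1 in 4 and 0 and Gja1 in 2 and 0. The part of these markers' cells in the Ntrk2 difference was not tested.

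Ntrk3 (chr7:78175959-78738012, minus strand), which encodes the NT-3 receptor TrkC, leaned the other way. It was detected in 17 of 52 pLSOs (32.7%, 20.3 to 47.1%) at up to 32 TPM and in 13 of 28 LOCs (46.4%, 27.5 to 66.1%) at up to 50 TPM, with a log2 difference of -0.52 and overlapping intervals. It was also the only member detected in negative controls, at 9 and 1 TPM in 2 of 8. One read of Ntrk3 was worth up to an estimated 21.7 TPM in the shallowest control.

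Ret (chr6:118151745-118197718, minus strand), the receptor of the GDNF family, was the second member past the size of 1. It was detected in 11 of 28 LOCs (39.3%, 21.5 to 59.4%) at 1, 8, 8, 19, 20, 22, 23, 53, 68, 84 and 114 TPM, and in 1 of 52 pLSOs (1.92%, 0.0487 to 10.3%), an Onset neuron with 9 TPM. Among the LOCs, 8 lay above the single pLSO with the transcript. Mean log2(TPM + 1) was 1.80 ± 2.50 in LOCs and 0.06 ± 0.46 in pLSOs, a difference of -1.73. Ret was at 0 in all 8 negative controls, which allows a share of up to 37.5%. In these shallow libraries 1 read of it would have been worth an estimated 1.29 to 99.6 TPM.

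Of the 9 members that passed the filter, Igf1 and Ret were past 1 toward LOCs and none was toward pLSOs. Over the 10319 genes that passed it, 4.68% were past 1 toward LOCs and 6.99% toward pLSOs, and the median difference was 0.07, against -0.18 for the 9 members. Between firing types, Igf2r was past 1 toward Onset and Igf1 toward Sustained neurons. The background was 4.78% of genes toward Onset and 10.3% toward Sustained neurons, of which there were only 11.

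**Figure D2:**
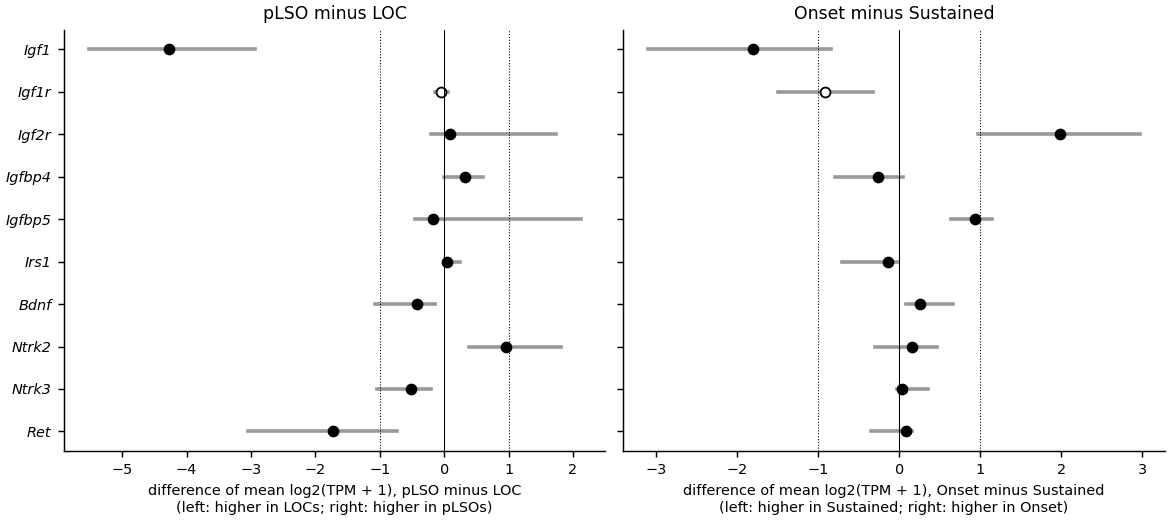
Points give for each member how far mean log2(TPM + 1) of 2 groups lay apart, pLSO minus LOC on the left and Onset minus Sustained on the right, and grey bars span the values under the other processing choices on a log2 difference scale. The open point is Igf1r, which did not pass the filter, and dotted lines mark a difference of 1 in size. Igf1 and Ret lay at -4.27 and -1.73 on the left.

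Levels of different members were compared only after the estimated reads had been divided by each gene's own exon length. On that scale Igf1 led in LOCs at 94.9 ± 141 TPM (SD, n = 28), followed by Ret at 41.9 ± 78.1, Bdnf at 37.8 ± 118, Igfbp5 at 36.8 ± 101 and Ntrk3 at 19.9 ± 38.1 TPM. In pLSOs Ntrk2 led at 33.7 ± 57.5 TPM (n = 52), followed by Igfbp5 at 27.8 ± 57.8, Igf1 at 12.4 ± 38.6 and Ntrk3 at 11.0 ± 23.6 TPM. Every neighbouring pair in these orders differed by less than its SD over neurons. Igf1r was lowest in both classes, at 0.109 TPM in LOCs and 0.0590 TPM in pLSOs. The divisor was checked directly only in the first rows of the table, so these levels are estimates.

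A pLSO held a median of 2 of the 10 members and a LOC a median of 3, with at most 6 in either class. Of the 28 LOCs, 6 held both Igf1 and Ret, 13 Igf1 alone, 5 Ret alone and 4 neither. Bdnf and Ntrk2 were found together in 1 pLSO and in 1 LOC. Ntrk2 and Ntrk3 were found together in 11 pLSOs, where 11 held Ntrk2 alone and 6 Ntrk3 alone.

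**Figure D3:**
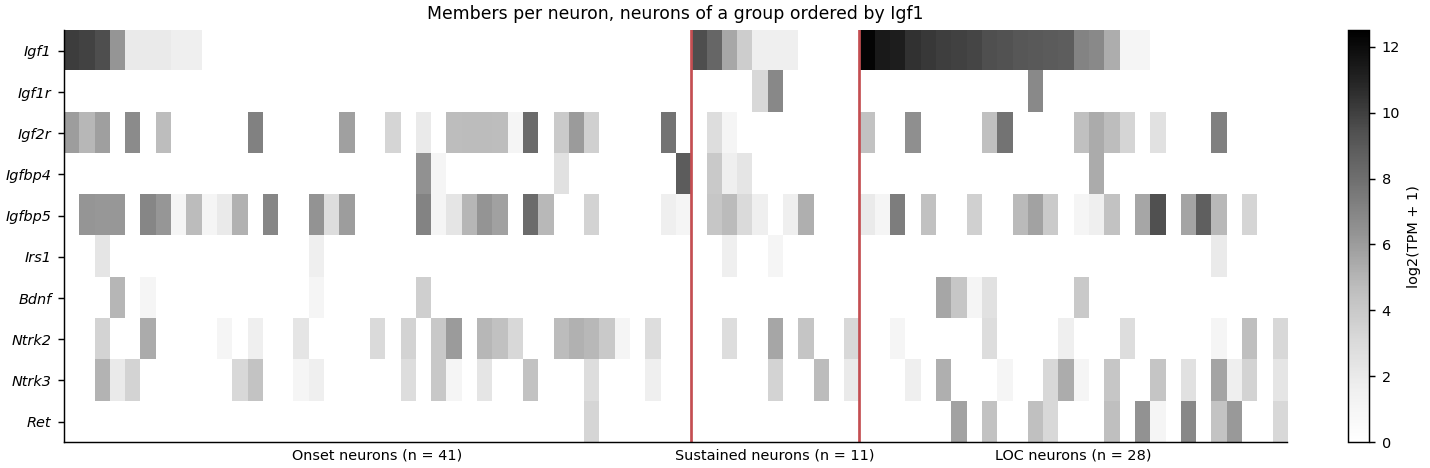
Each column is 1 of 80 neurons, grouped as 41 Onset, 11 Sustained and 28 LOC neurons and ordered within a group by Igf1, each row is a member, and grey gives log2(TPM + 1). Among LOCs, Ret appeared in 6 neurons with Igf1 and in 5 without it.

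The other genes of these pathways came from lists of 89 genes, of which 61 passed the filter. Of these 61, 6 were past 1 toward LOCs and 5 toward pLSOs, with a median difference of 0.01, where 4.68% and 6.99% of all genes tested were past 1 and their median was 0.07. Among the ligands, Ins2, Ntf3, Ntf5, Cntf, Lif and Ctf1 were listed at 0 in all 80 neurons. Igf2 was detected in 2 pLSOs and 2 LOCs at up to 16 TPM. Ins1, Gdnf, Nrtn, Artn and Pspn, the last 4 being GDNF family ligands, were each detected in 1 neuron.

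Of the 4 GDNF co-receptor genes, 1 was past 1 on the side of LOCs, as Ret was. Gfra1, which encodes the GDNF-binding co-receptor, was detected in 8 of 28 LOCs at up to 547 TPM and in 4 of 52 pLSOs at up to 64 TPM, a log2 difference of -1.69. Ncam1, an adhesion molecule that can also bind GDNF, was detected in 16 LOCs and 15 pLSOs, with a difference of -1.36, and in 3 of 8 negative controls. Gfra2 differed by -0.30 and Gfra4 by 0.26, and Gfra3 was detected in 1 LOC. Ret and Gfra1 were found together in 3 LOCs, where 8 held Ret alone and 5 Gfra1 alone.

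Among the neurotrophin receptors, Ngfr, which encodes p75, was detected in 8 of 52 pLSOs at up to 5103 TPM and in 0 of 28 LOCs, which allows a share of up to 10.7%, and the log2 difference was 1.43. Sorcs1, a sortilin-related receptor, was detected in 15 pLSOs and in 0 LOCs (difference 0.87), and Sorcs3 in 4 pLSOs and 12 LOCs (difference -1.04). Sort1 was detected in 6 pLSOs and 1 LOC, and Sorcs2 in 1 pLSO. Of the CNTF and LIF receptor genes, Il6st differed by 0.74, Lifr by -0.30 and Cntfr by -0.15.

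Around IGF1, Pappa, the protease that frees IGFs from binding proteins, was detected in 13 of 28 LOCs at up to 176 TPM and in 8 of 52 pLSOs at up to 42 TPM, a difference of -1.83. Of the LOCs with Igf1, 9 held Pappa and 10 did not. Igfbp3 was detected in 6 pLSOs and in 0 LOCs (difference 0.87), Igfbp2 in 17 pLSOs and 5 LOCs (difference 0.72), and Insr, the insulin receptor, in 8 pLSOs and 4 LOCs (difference 0.17).

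Downstream kinases and adaptors were split between the classes. Frs2, an adaptor of Trk and FGF receptors, was detected in 15 pLSOs and 1 LOC (difference 1.63). Braf, a kinase of the MAPK cascade, was detected in 18 pLSOs and 16 LOCs (difference -2.09). The ribosomal S6 kinase genes Rps6ka1 and Rps6ka2 differed by 1.08 and 1.12, and Akt2 by -1.33 on 2 pLSOs and 5 LOCs. Braf and Akt2 were also detected in 1 of 8 negative controls each.

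**Figure D4:**
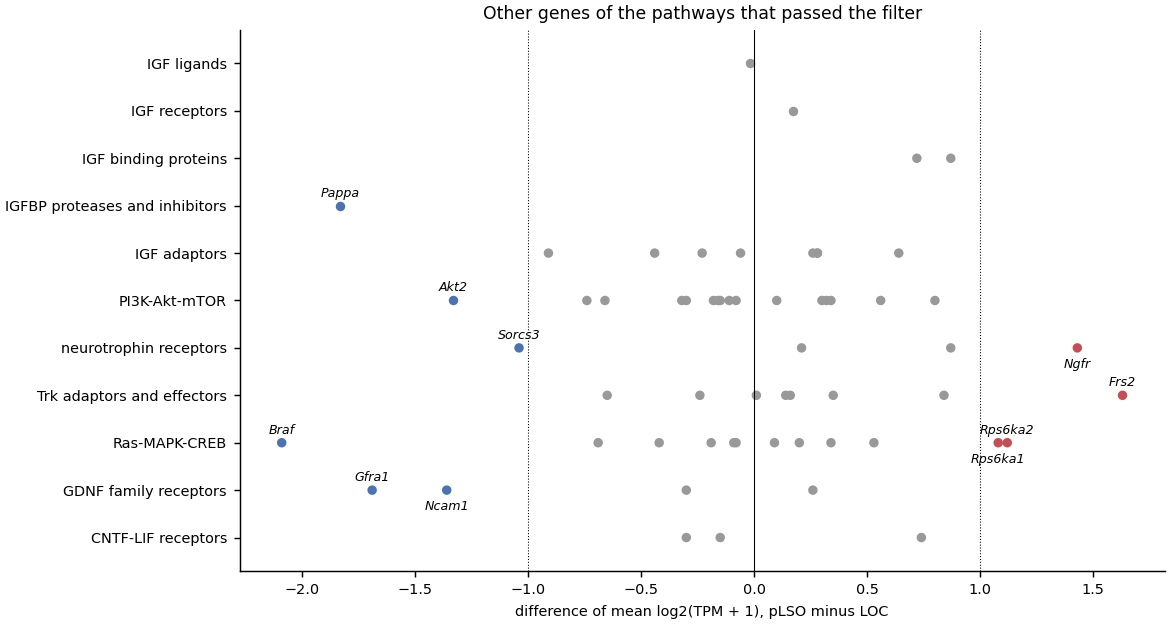
Each point is 1 of 60 other pathway genes that passed the filter, placed by how far its mean log2(TPM + 1) in pLSOs lay from that in LOCs, and grouped by list. The 6 genes past -1 (blue, higher in LOCs) and 4 past 1 (red, higher in pLSOs) are named.

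The genes whose values followed a member most closely were sought within each class by Pearson's r of log2(TPM + 1), among 4562 other genes in the 28 LOCs and 4746 in the 52 pLSOs. These correlations are descriptions of sparse values that share library and depth. In LOCs, Igf1 was followed by Gm14494, Pcnp, Farsa, Lgmn and Dgcr6, with r from 0.56 to 0.66. Ret was followed by Eif3m, Ppp1r12c, Btg2, Kcnd2 and Polr2c, with r from 0.61 to 0.72. Ntrk3 was followed by Bsn, Atf2, Ift81, Gm10108 and Akap8 (0.64 to 0.72), and Ntrk2 by Rdx, Elovl4, Rsl24d1, Thy1 and Cd99l2 (0.71 to 0.83). Ntrk2 and Rdx were detected together in 6 LOCs.

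Igf2r was followed in LOCs by Kansl1, Ago3, Nol11, Arhgap35 and Dync1li2 (0.64 to 0.69), and Igfbp5 by Top1, Rab3c, Nacad, Rheb and Omg (0.54 to 0.63). No other member was among the genes named for a member. In pLSOs, Igf1 was followed by Rpl11, Ykt6, Nfic, Safb and Mrpl53 (0.50 to 0.54), Igf2r by Ifitm10, Acp2, Trak1, Snap91 and Bag1 (0.43 to 0.57), and Igfbp5 by Ppp3cb, Kdsr, Csnk2a1, Aplp1 and Atf6 (0.44 to 0.49). Ntrk2 was followed by Adgrb1, Polr2h, Zeb1, Pstk and Fndc5 (0.42 to 0.47) and Ntrk3 by Kdm5b, Jakmip2, Drg2, Fgfr2 and Tsc22d1 (0.49 to 0.53).

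Members were also set beside the electrophysiological features of the same neurons, within each class. Over 70 relations in pLSOs, Spearman's rho lay between -0.25 and 0.32. Over 84 relations in LOCs it lay between -0.68 and 0.54. The relations rested on 49 to 52 pLSOs and on 19 to 28 LOCs, and no range over all genes is given beside them. The lowest was that of Igf2r with the resting potential, known for 19 LOCs. With the number of detected genes, rho was 0.02 for Igf1, 0.03 for Ret and 0.47 for Ntrk2 over the 28 LOCs.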

How the data were processed

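Patch-seq libraries were made by the authors with a modified Smart-seq2 protocol. Per the labels and methods, reads were trimmed with Trim Galore 0.4.2, aligned with STAR to mm10, passed through Picard 1.115 for duplicates and counted with featureCounts on an earlier Gencode release. The authors deposited TPM rounded to whole numbers, handled here as a score, and each library summed to between 999773 and 1000026. Gene names and lengths were taken from Gencode vM21. The members and gene lists were chosen with earlier results of these data known.

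Genes detected at 1 TPM or more in at least 5% of the 80 neurons were kept. Classes were compared by the difference of mean log2(TPM + 1), called at 1 or more in size. No significance test was made, because each group counts as 1 sample. Shares carry exact Clopper-Pearson 95% intervals, and 0 of n the limit of 3 over n. Ratios were not formed where 3 or fewer neurons of a group held the gene. Reads were estimated from the smallest step of each library and a divisor that rose with the row. In the rows checked, 225 of 297 divisors (75.8%) lay within 1 base of sorted exon lengths less 80. Named genes were the members, ligands and receptors of the lists, other list genes past 1, and the 5 most correlated genes of members detected in at least 20% of a class, and some genes that this rule names are not reported here. Marker genes were used as counts and sums. The calculation of differences was checked on data with planted fold changes. Tables were handled with pandas 2.3.3 under Python 3.11.15, intervals and correlations computed with SciPy 1.17.1, arrays with NumPy 2.4.6, and plots drawn with matplotlib 3.10.9.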

Additional observations from a re-analysis of the deposited data

Results flagged for a closer look

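Ntrk3 in the negative controls was marked because 1 library stood far from the others. It held 9 TPM, the next held 1 TPM and the other 6 were at 0, so that the gap was 0.889 of the whole range of the 8 controls. The limit that this gap passed is one that chance passes in about 1 in 20 groups of normally spread values, and values mostly at 0 are not spread so. The part of slice RNA in the Ntrk3 values of neurons was not tested.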

How the results depend on the processing

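Igf1 stayed higher in LOCs under each alternative run, from -5.52 with a pseudocount of 0.1 to -2.93 with a pseudocount of 10, and Ret from -3.05 to -0.73, where a pseudocount of 10 took it below the size of 1. Of 139 differences of members recomputed, 136 moved by less than 1 SD over neurons, and none of the called ones reversed. That limit was wide, so the count does not show that the differences were stable. Without any microglia marker, Igf2r went from 0.09 to 1.74 and Igfbp5 from -0.18 to 2.12, and both counted as unmoved. Members higher in LOCs, 2 in number, became 1 with a pseudocount of 10, 3 after rescaling by row length and without neurons with any microglia marker, and 4 by a ratio of mean TPM of at least 2; of all genes, 1.59%, 6.89%, 15.4% and 21.9% were then past the limit toward LOCs, against 4.68%. Members higher in pLSOs went from 0 to 1 with a pseudocount of 0.1, after rescaling by row length and without the highest neuron of each gene, and to 2 by the ratio and without neurons with any microglia marker, where they were Igf2r and Igfbp5. The share of all genes toward pLSOs went from 6.99% to 14.7%, 12.3%, 8.11%, 30.9% and 16.5% in these settings. Members higher in Onset neurons went from 1 to 2 with a pseudocount of 0.1, after rescaling and without the highest neuron, to 5 by the ratio and to 0 with a pseudocount of 10. Members higher in Sustained neurons went from 1 to 0 with a pseudocount of 10 and by the ratio, and to 2 without the neurons in the lowest quartile of detected genes. The share of all genes past the limit between firing types was not computed for these settings. The counts for firing types therefore cannot be told from the background. Other pathway genes higher in LOCs went from 6 to 10 with a pseudocount of 0.1 and without any microglia marker, to 1 with a pseudocount of 10 and to 12 by the ratio. Of all genes, 9.39%, 15.4%, 1.59% and 21.9% were past the limit toward LOCs in these settings. Other pathway genes higher in pLSOs went from 5 to 13, 11, 1 and 18 under a pseudocount of 0.1, without any microglia marker, a pseudocount of 10 and the ratio. Of all genes, 14.7%, 16.5%, 2.14% and 30.9% were then past the limit toward pLSOs. The cause of these moves was not tested. With all libraries as labelled, Igf1 differed by -3.98 and Ret by -1.64. Rescaling moved the median of all genes from 0.07 to 0.16. Without any microglia marker no Sustained neuron remained, so firing types had no value there. Of 30 shares, 11 left their interval at a threshold of 10 TPM. No paired analysis was possible because the labels give neurons and controls running numbers that name no shared animal or day. The 2 alternatives by filter, none and a mean of 10 TPM in a class, moved no count beyond 1.5-fold.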

Other observations

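Of the 5 genes most correlated with Ntrk2 in LOCs, 4 lie on chromosome 9, where 256 (5.61%) of the genes compared lie. This was noticed after the values were seen and was not tested. The left-out negative controls held members that the other controls lacked, with 64 and 25 TPM of Ntrk2, and 1 of them held 130 TPM of Igfbp5 and 6 TPM of Igf1.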
